A study of Sus scrofa with 18 samples.

Results

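The H3K4me3 peaks of the circular muscle (CM) and the longitudinal muscle (LM) of the pig uterus on day 15 of pregnancy were compared gene by gene. All 28210 RefSeq genes of Sscrofa11.1 that lie on the 18 autosomes, X and Y entered the comparison, of 30371 in the annotation. The groups were GD15M_CM and GD15M_LM, the inner circular and outer longitudinal layers from the mesometrial side of the uterus of pregnant Yorkshire gilts, with 2 gilts per group. A further group, CD15M_CM, was circular muscle of the same side from 2 cycling gilts, taken at day 15 of their cycle, and served as a reference. All groups were profiled by a CUT&Tag type assay with antibodies to H3K4me3 and H3K27ac and an IgG control, so 4 of the 18 libraries carry the comparison and the others give the control or another readout. The layers were parted by hand after the endometrium had been cut away. Nuclei were taken from the whole layer with no sort, so each list mixes the cell types of that layer. The labels do not say whether the layers came from the same gilts.

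H3K4me3 is the trimethylation of lysine 4 on histone H3. It marks the start sites of active and poised genes, and in genes that define a cell type it often spreads from the start site into the gene body as a broad domain. H3K27ac is the acetylation of lysine 27 on the same histone and marks active promoters and enhancers. The myometrium is mostly smooth muscle, whose force comes from myosin II after the myosin light chain kinase MYLK, driven by calcium and calmodulin, has phosphorylated its light chain. The circular layer lies against the endometrium, with its luminal and glandular epithelium, and the longitudinal layer lies beneath the serosa.

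The reads of the 2 gilts were merged before peaks were called, so each layer had 1 list and the spread between gilts is unknown. No test was therefore run, and the values below describe these pooled libraries. The list of GD15M_CM held 33599 H3K4me3 peaks with a median length of 760 bp and a total length of 47.7 Mb, and that of GD15M_LM held 31910 peaks with a median of 1007 bp and a total of 52.2 Mb. Sequencing depth is not given in the lists, and its part in any difference was not tested. Fold enrichment over IgG was turned into a percentile within its own list, from 0 for no peak to 100 for the highest peak. For each gene, the best percentile and the summed peak length were taken from 3 kb before to 3 kb after the gene. A gene was called higher in a layer when its best percentile there was at least 20 points higher and its summed length at least 1.5 times as long, or when only that layer had a peak and its percentile reached 20. Because each value is a property of a bulk sample, fewer cells of a type and less of the mark per cell cannot be told apart.

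Most genes carried the mark alike in both layers. A peak was found in both lists at 16472 genes, in GD15M_LM only at 724, in GD15M_CM only at 440 and in neither at 10574. Among genes with a peak in both, the percentile in GD15M_LM minus that in GD15M_CM had a median of −0.62 points and quartiles of −8.03 and 6.80, and 62.2% of these genes lay within 10 points. The middle 90% ran from −21.3 to 21.1 points. The median summed length was 3116 bp in GD15M_CM and 3246.5 bp in GD15M_LM, a log2 ratio of 0.07.

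Higher H3K4me3 was called in GD15M_LM at 938 genes, 3.33% of all genes, and in GD15M_CM at 601 genes, 2.13%. Among protein-coding genes, to which the gene groups below belong, the shares were 3.35% and 2.11%. Of the genes called in GD15M_LM, 402 had a peak in both lists and 536 in that list only, and they rested on 852 distinct best peaks. Of those called in GD15M_CM, 263 had a peak in both lists and 338 in that list only, with 524 distinct best peaks. The same rule applied to pregnant and cyclic circular muscle called 952 genes, 3.37%, as higher in CD15M_CM and 242, 0.858%, as higher in GD15M_CM. The CD15M_CM list held 36331 peaks with a total length of 55.2 Mb, more than either pregnant list. The part of list size in these calls was not tested. They share the GD15M_CM list with the comparison of the layers. The share called higher in the longitudinal layer was thus no larger than the share that the same circular list gave against another circular list.

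The rule has a ceiling. A gene above percentile 80 in GD15M_CM could not be called higher in GD15M_LM, and this held for 8797 genes, 49.9% of those with a peak. The reverse held for 8385 genes, 47.5%. The smallest difference among called genes was 20.02 points toward GD15M_LM and 20.01 toward GD15M_CM, and the largest difference under the limit was 19.99 and 19.9995 points in the same order. A further 550 genes toward GD15M_LM and 714 toward GD15M_CM passed the percentile limit but not the length limit. Lists of related genes are therefore described below by their median and by their length as well as by their calls. Their counts are to be read beside those of all protein-coding genes. Of 14139 with a peak in both lists, 8565 had the longer summed length in GD15M_LM and 5547 in GD15M_CM. Of 14868 with a peak in either list, 7160 ranked higher in GD15M_LM and 7708 in GD15M_CM.

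**Figure D1:**
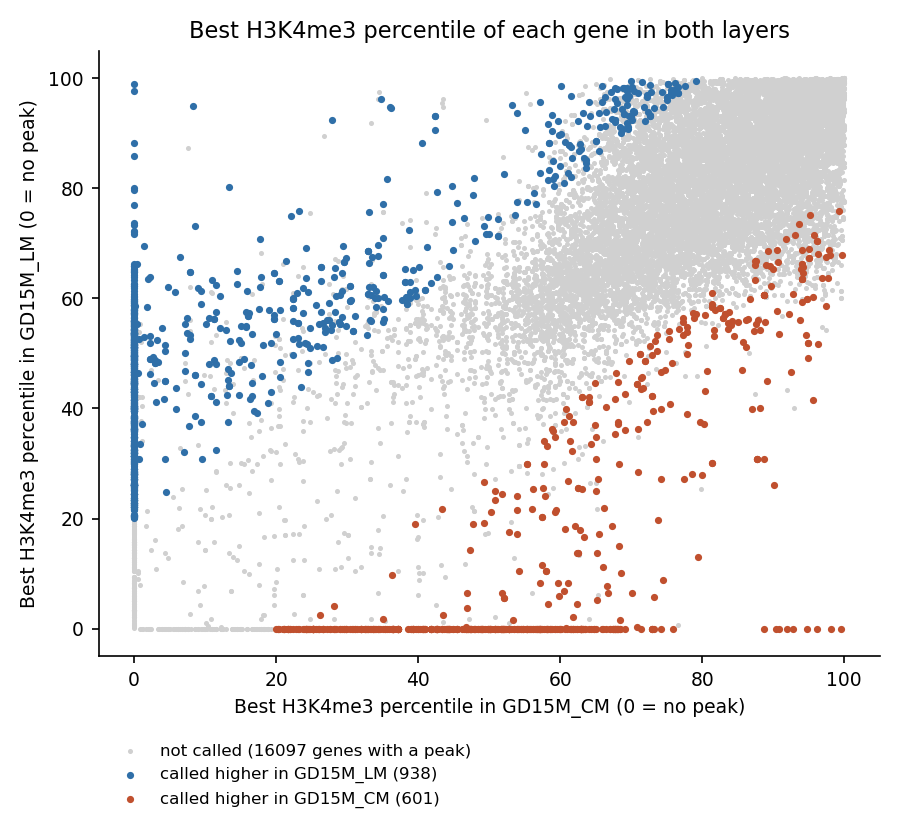
Each point is 1 of the genes with an H3K4me3 peak, placed by its best percentile in GD15M_CM (x axis) and GD15M_LM (y axis), both from 0 (no peak) to 100. The 938 genes called higher in GD15M_LM (blue) and the 601 called higher in GD15M_CM (red) lie on either side of the main cloud of genes (grey), and many lie on an axis because they had a peak in 1 list only.

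Genes of the contractile apparatus were covered by H3K4me3 peaks over a greater summed length in the longitudinal layer. All 26 listed genes, among them the myosin heavy chain MYH11, the actins ACTA2 and ACTG2 and the light chain kinase MYLK, had a peak in both layers. The summed length was longer in GD15M_LM at 25 of the 26, with PPP1CB, the catalytic subunit of myosin phosphatase, as the exception. At 13 of them it was at least 1.5 times as long, while 0 passed that limit toward GD15M_CM. Of all 14139 protein-coding genes with a peak in both lists, 11.1% passed it toward GD15M_LM and 4.54% toward GD15M_CM. Together the 26 genes carried 220387 bp of H3K4me3 peaks in GD15M_CM and 378130 bp in GD15M_LM. The second mark was split at these genes. The H3K27ac percentile was higher in GD15M_LM at 15 and in GD15M_CM at 11, with a median difference of 0.96 points. Over all genes with an H3K4me3 peak, H3K27ac ranked higher in GD15M_LM at 41.1% and in GD15M_CM at 53.9%.

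MYLK (chromosome 13, 136509878 to 136809674) had the longest summed peak length of this group in GD15M_LM. Its peaks covered 15243 bp in GD15M_CM, 22530 bp in CD15M_CM and 35971 bp in GD15M_LM, and its best percentile was 76.5, 97.2 and 98.5 in the same order. The pregnant circular layer was thus the low one of the 3 lists. PPP1R12B, which encodes a targeting subunit of myosin phosphatase, was covered over 9888, 22706 and 31991 bp in the same order. MYH11 was covered over 8240, 12013 and 22017 bp, and ACTG2, the enteric smooth muscle actin, over 8211, 10009 and 15609 bp. In these 4 genes the covered length of CD15M_CM lay between those of the pregnant layers. The summed length counts every peak in the window and is not the length of a single domain. The best peak alone measured 2239 bp in GD15M_CM and 2275 bp in GD15M_LM at PPP1R12B. At MYH11 it measured 6773 and 11893 bp.

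By height of the best peak, the contractile genes differed less. The median percentile was 77.8 in GD15M_CM and 91.0 in GD15M_LM, the median of the 26 differences was 6.12 points, and 19 of 26 ranked higher in GD15M_LM, while the median difference over all protein-coding genes was 0. Called higher in GD15M_LM were 3 genes, MYLK, SYNPO2 and SYNM, and 0 were called in GD15M_CM. SYNM, which encodes the intermediate filament protein synemin, went from percentile 60.1 and 3277 bp in GD15M_CM to 98.6 and 6542 bp in GD15M_LM. SYNPO2, an actin-binding protein of the Z-disc and dense bodies, went from 74.3 to 97.5. PDLIM3 ranked 34.1 points higher in GD15M_LM, but its length was nearly equal at 6666 and 6696 bp, so it was not called. TPM1, tropomyosin 1, ranked lower in GD15M_LM, 77.2 against 97.0, although its summed length was greater there. Both the count and the length depended on the window and on weak peaks. With only the 3 kb around either gene end counted, 0 contractile genes were called and 6 were at least 1.5 times as long in GD15M_LM. With strict peaks alone, 10 were called and 16 were that much longer. Strict peaks here and below had a −log10 p of at least 10 and a fold enrichment of at least 5.

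**Figure D2:**
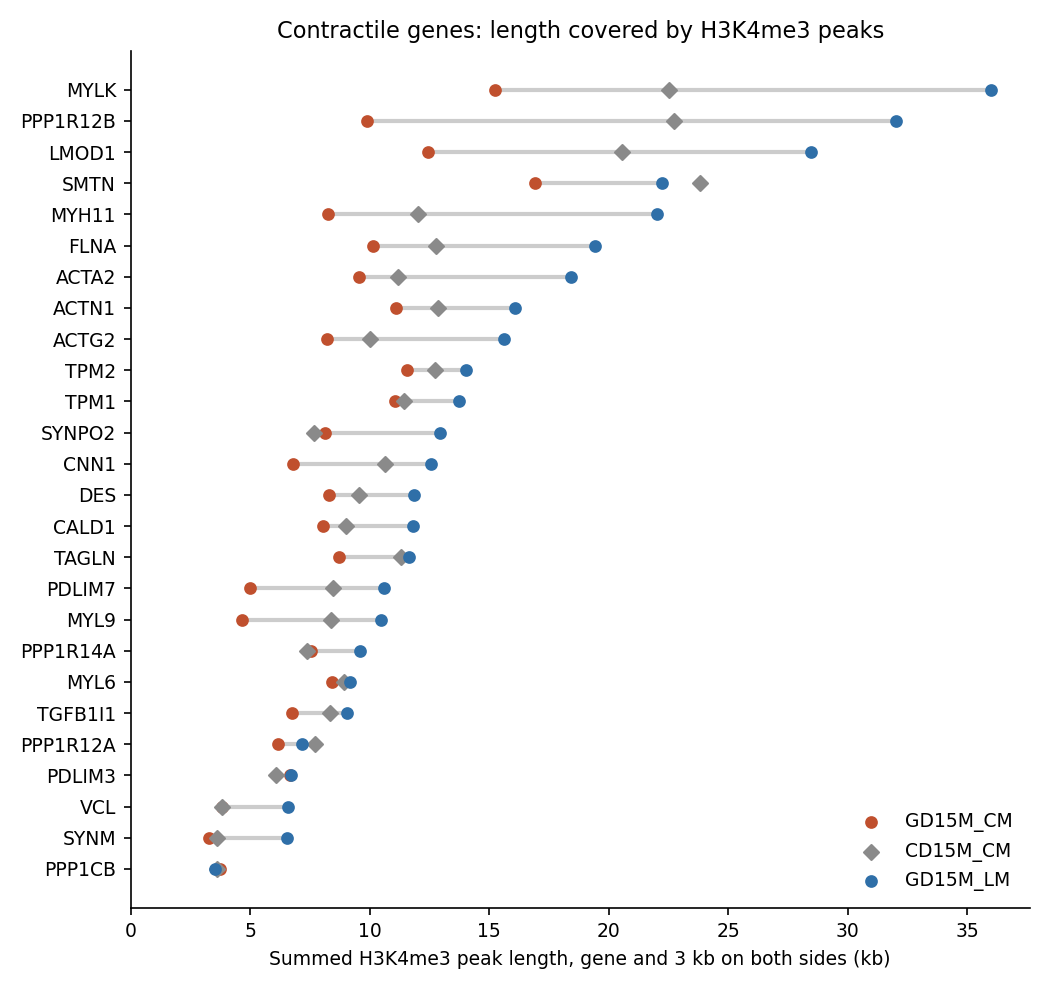
Summed H3K4me3 peak length in kb (x axis) of the 26 contractile genes (y axis) in GD15M_CM (red), CD15M_CM (grey diamonds) and GD15M_LM (blue), 1 pooled list each. The blue point lies to the right of the red one at 25 genes, and at MYLK the lengths were 15243 and 35971 bp.

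The transcription regulators of smooth muscle leaned the same way in percentile with no gene called. Of 14 placed genes, 11 ranked higher in GD15M_LM and the median difference was 9.19 points. MEF2C went from percentile 77.5 to 98.1 and GATA6 from 69.0 to 89.4. SRF, the factor that binds CArG boxes, and MYOCD, its coactivator myocardin, stood at 91.8 and 80.9 in GD15M_CM and at 98.8 and 88.6 in GD15M_LM. With strict peaks, 2 of the 14 genes were called in GD15M_LM. H3K27ac ranked higher in GD15M_LM at 7 of the 14 and in GD15M_CM at 7, with a median difference of −0.13 points.

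Receptors that act on contraction ranked mostly higher in the longitudinal layer. Of 27 receptor genes, 6 had no H3K4me3 peak in either layer (ADRB3, CHRM1, CHRM5, HTR4, NMUR2 and TACR2), and 17 of the other 21 ranked higher in GD15M_LM. The median difference over the 27 was 5.54 points, but it fell to 1.42 with ranking by −log10 p. Called in GD15M_LM were 4 genes, the oxytocin receptor OXTR, the adrenergic receptor ADRA2A and the prostaglandin E receptors PTGER1 and PTGER3. No receptor gene was called in GD15M_CM, although with strict peaks there was 1 call.

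OXTR (chromosome 13, 65134055 to 65155543) carried a peak of 243 bp with a fold enrichment of 4.13 in GD15M_CM, and a peak of 3793 bp with a fold enrichment of 12.3 in GD15M_LM. Its percentiles were 40.1 and 65.8, and 50.7 in CD15M_CM. H3K27ac at OXTR had no peak in GD15M_CM and a percentile of 64.6 in GD15M_LM. In CD15M_CM the H3K4me3 peaks at OXTR covered 1942 bp, with a best fold enrichment of 4.71. Both the covered length and the percentile of CD15M_CM thus lay between those of the pregnant layers. PTGER3 (chromosome 6, 141958955 to 142160437), a receptor that lowers cyclic AMP, had percentiles of 68.0, 89.6 and 98.1 in GD15M_CM, CD15M_CM and GD15M_LM. PTGER1, which couples to calcium release, had 7.23, 62.5 and 55.3 in the same order. ADRB1, an adrenergic receptor, stood at 65.2 in GD15M_CM and 21.7 in GD15M_LM and was not called, since its length of 3330 bp was less than 1.5 times the 2330 bp of GD15M_LM. The receptor for prostaglandin F2α, PTGFR, differed by 5.61 points.

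Genes of calcium handling and membrane excitability were also covered over a greater length in the longitudinal layer. Of 33 placed genes, 29 had the longer summed length in GD15M_LM, 12 of them by at least 1.5 times against 0 the other way, and the median percentile difference was 6.82 points. Among all 14139 protein-coding genes with a peak in both lists, 8565 had the longer summed length in GD15M_LM. Called in GD15M_LM were 2 genes, TRPC6, a calcium-permeable channel opened by diacylglycerol, and KCNMB1, the smooth muscle subunit of the large-conductance potassium channel. TRPC6 went from percentile 75.1 to 98.9 and KCNMB1 from 69.0 to 93.5. The pore subunit of the same channel, KCNMA1, went from 73.5 to 97.2 without the length a call needs. That of the L-type calcium channel, CACNA1C, went from 75.5 to 95.1, and it was covered over 5078 bp in GD15M_CM and 9068 bp in GD15M_LM but differed by 19.6 points, under the limit of 20. CACNA1H, a T-type calcium channel, differed by −3.50 points in percentile while its covered length was 5387 bp in GD15M_CM and 20157 bp in GD15M_LM. ATP2A2, the calcium pump of the sarcoplasmic reticulum, ranked lower in GD15M_LM, 78.8 against 98.6, as did the inositol trisphosphate receptor ITPR2, 66.3 against 84.6. The gap junction genes GJA1 and GJC1 ranked higher there by 7.54 and 16.4 points. With strict peaks, 6 genes of this group were called in GD15M_LM, and with the 3 kb around gene ends, 1.

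The cyclic nucleotide pathway of relaxation and the steroid receptors had smaller median differences. The median was 1.77 points over 11 placed genes of cyclic GMP and cyclic AMP signalling and 0 over 14 steroid receptors and cofactors, with no gene of either list called. The former median was 8.92 points with peaks less than 1 kb apart joined and 5.84 with strict peaks. Of the 10 cyclic nucleotide genes with a peak, 8 had the longer summed length in GD15M_LM, beside 8565 of 14139 protein-coding genes. NCOA2, a steroid receptor coactivator, stood at 98.4 in GD15M_CM and 79.7 in GD15M_LM. The 28 ribosomal protein genes, taken as housekeeping genes, had a median difference of 0.06 points, 14 ranking higher in each layer. Single differences ran from −28.3 points at RPL27 to 26.6 points at RPL11, so the percentile limit was passed in both directions. None of these genes differed in length by 1.5 times, and none was called. Percentile differences of that size at single genes thus also occurred among housekeeping genes.

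Extracellular matrix genes and their integrin receptors formed the matrix list, which had the largest median percentile difference toward the longitudinal layer among the lists that are not cell type markers. Of 33 placed genes, 29 ranked higher in GD15M_LM, 31 had the longer summed length there and 15 of these by at least 1.5 times, and the median percentile difference was 10.6 points. Called in GD15M_LM were 5 genes, LAMB1, ITGA5, COL14A1, ITGA8 and SPARC, and 0 were called in GD15M_CM. ITGA8 (chromosome 10, 46132887 to 46303659), the integrin α8 subunit of smooth muscle, went from percentile 69.0 in GD15M_CM and 77.0 in CD15M_CM to 98.3 in GD15M_LM. LAMA2, a laminin chain of the muscle basement membrane, went from 64.3 to 93.7, and TNC, tenascin C, from 37.8 to 73.8, without the length a call needs. ITGA1 and COL1A1 were among the 4 that ranked lower, with differences of −11.5 and −5.57 points, though COL1A1 was covered over 8410 bp in GD15M_CM and 21147 bp in GD15M_LM. With strict peaks 12 matrix genes were called and with the 3 kb around gene ends 1. The place of the list also depended on the ranking. With ranking by −log10 p the matrix median was 9.51 points, below the 11.8 of the contractile genes.

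SPARC shows a limit of the window. In GD15M_LM a peak of 9192 bp reached the 3 kb next to the gene and gave percentile 88.3, and in GD15M_CM no peak did, since its peak at the same place ended before the window. With each peak assigned by its centre, SPARC still differed by 55.8 points toward GD15M_LM. Among genes called with a peak in 1 list only, the other list overlapped the same peak outside the window at 24 genes called in GD15M_LM and 15 called in GD15M_CM.

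Markers of uterine epithelium went the opposite way. Of 17 placed genes, 16 ranked higher in GD15M_CM and 16 had the longer summed length there, 13 of these by at least 1.5 times, counting genes with a peak in both lists. The median percentile difference was −23.7 points, and it lay between −39.3 and −23.1 under the other ways of processing. Called in GD15M_CM were 9 genes, and 8 to 12 under the other ways of processing. The exception was SPP1, osteopontin, with no peak in GD15M_CM and 553 bp of peak at percentile 37.8 in GD15M_LM. The summed length over the 17 genes was 83415 bp in GD15M_CM and 43623 bp in GD15M_LM. ELF3 was the sole marker listed at 0 in GD15M_LM.

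KRT19 (chromosome 12, 21115453 to 21119115), a keratin of simple epithelia, had a fold enrichment of 15.3 in GD15M_CM, 17.6 in CD15M_CM and 3.20 in GD15M_LM, which gave percentiles of 79.4, 78.5 and 12.9. The transcription factor OVOL2, which maintains epithelial identity, stood at 81.4, 72.9 and 30.2 in the same order. FOXA2 (chromosome 17, 29997397 to 30001704), the factor of uterine glands, stood at 95.6, 71.9 and 60.3. In these genes both circular lists were above the longitudinal one. The other 6 called genes were ELF3 and GRHL2, both epithelial transcription factors, the adhesion protein CDH1, the mucin MUC1, the tight junction protein CLDN3 and the keratin KRT8, with percentiles of 47.3 to 89.5 in GD15M_CM and 0 to 65.8 in GD15M_LM. EPCAM, the epithelial adhesion molecule, stood at 75.8 and 59.3 and was not called. The longitudinal list thus also held peaks at 16 of the 17 epithelial genes, most of them above percentile 50.

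The second mark gave the same order at these genes. The H3K27ac percentile was higher in GD15M_CM at 15 of the 17, with a median difference of −48.9 points. OVOL2, FOXA2, GRHL2, KRT18 and KRT19 had no H3K27ac peak in GD15M_LM, against percentiles of 57.9 to 94.6 in GD15M_CM. CLDN4 and SPP1 ranked higher in GD15M_LM. Whether the number of epithelial nuclei left with the circular layer moved the other genes called in GD15M_CM was not tested.

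**Figure D3:**
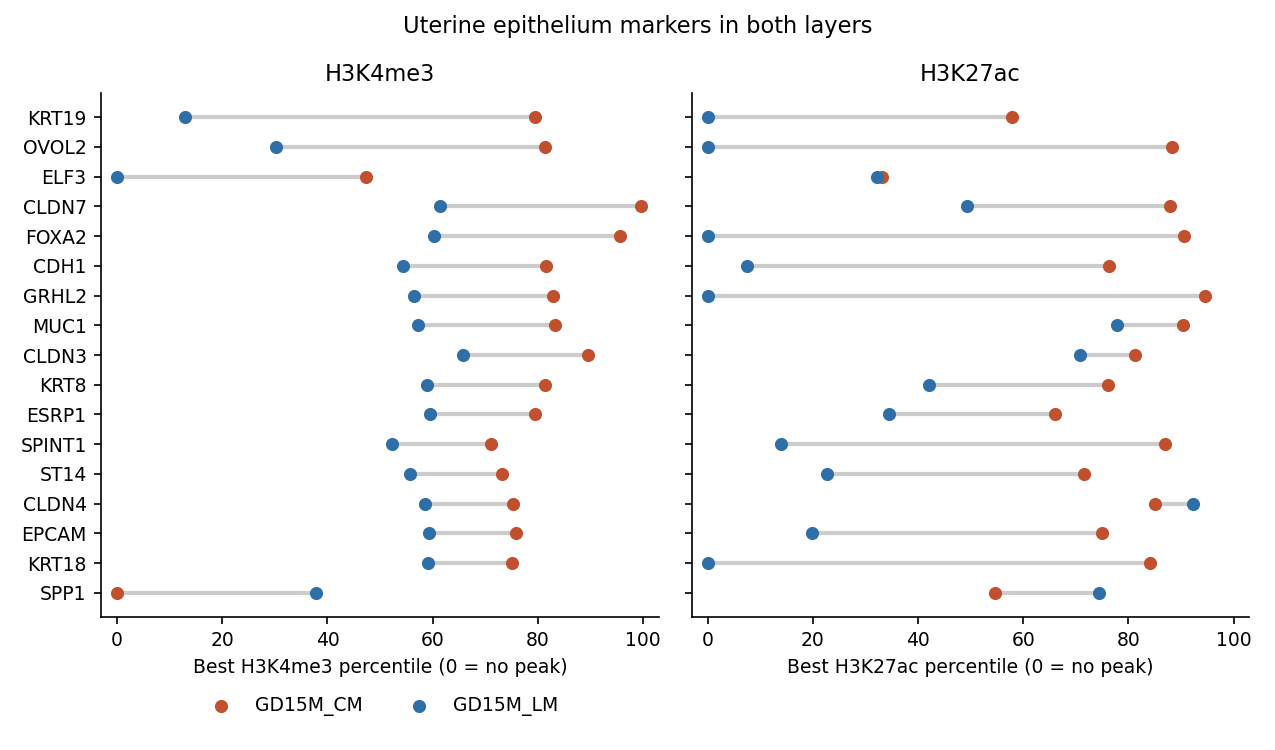
Best percentile (x axis, 0 means no peak) of H3K4me3 (left) and H3K27ac (right) at the 17 uterine epithelium markers (y axis) in GD15M_CM (red) and GD15M_LM (blue), 1 pooled list each. The red point lies to the right at 16 genes for H3K4me3 and at 15 for H3K27ac.

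Markers of other cell types were read in the same way. Pericyte and mural markers, which overlap with smooth muscle in function, leaned to GD15M_LM with a median of 14.8 points over 10 genes and 1 call, CSPG4 (NG2 proteoglycan). Among them KCNJ8 went from percentile 60.7 to 92.3 and EBF1 from 62.7 to 88.5. Fibroblast and interstitial markers had a median of 3.28 points over 12 genes with 2 called in GD15M_LM, DPT (14.5 and 65.0 in GD15M_CM and GD15M_LM) and MFAP5 (0 and 57.8). T cell markers had a median of −6.27 points over 17 genes, 13 ranking higher in GD15M_CM, and this median was 0 with strict peaks. There was 1 call, CD28, with 503 bp of peak in GD15M_CM and 299 bp in GD15M_LM. The medians were 0.24 over 17 macrophage and B cell markers and 0 over endothelium, mesothelium and nerve markers.

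Single marker genes were called in those lists with little peak sequence behind some of them. CD163 and PAX5 had no peak in GD15M_CM, and PAX5 had 44 bp of peak within the window in GD15M_LM. SOX17, a factor of endothelium and of uterine glands, was called in GD15M_CM at 94.1 against 64.6, and its H3K27ac percentile was 94.2 against 0. LYVE1, a marker of lymphatic vessels, had no peak in GD15M_CM and stood at 55.0 in GD15M_LM and 57.1 in CD15M_CM. The mesothelium genes LRRN4 and BNC1 were called in GD15M_CM, with 48.0 and 87.8 against 0 and 56.1. Of the nerve and Schwann cell markers, SNAP25 and FOXD3 were called in GD15M_LM, at 56.1 and 37.3 against 27.4 and 0.

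**Figure D4:**
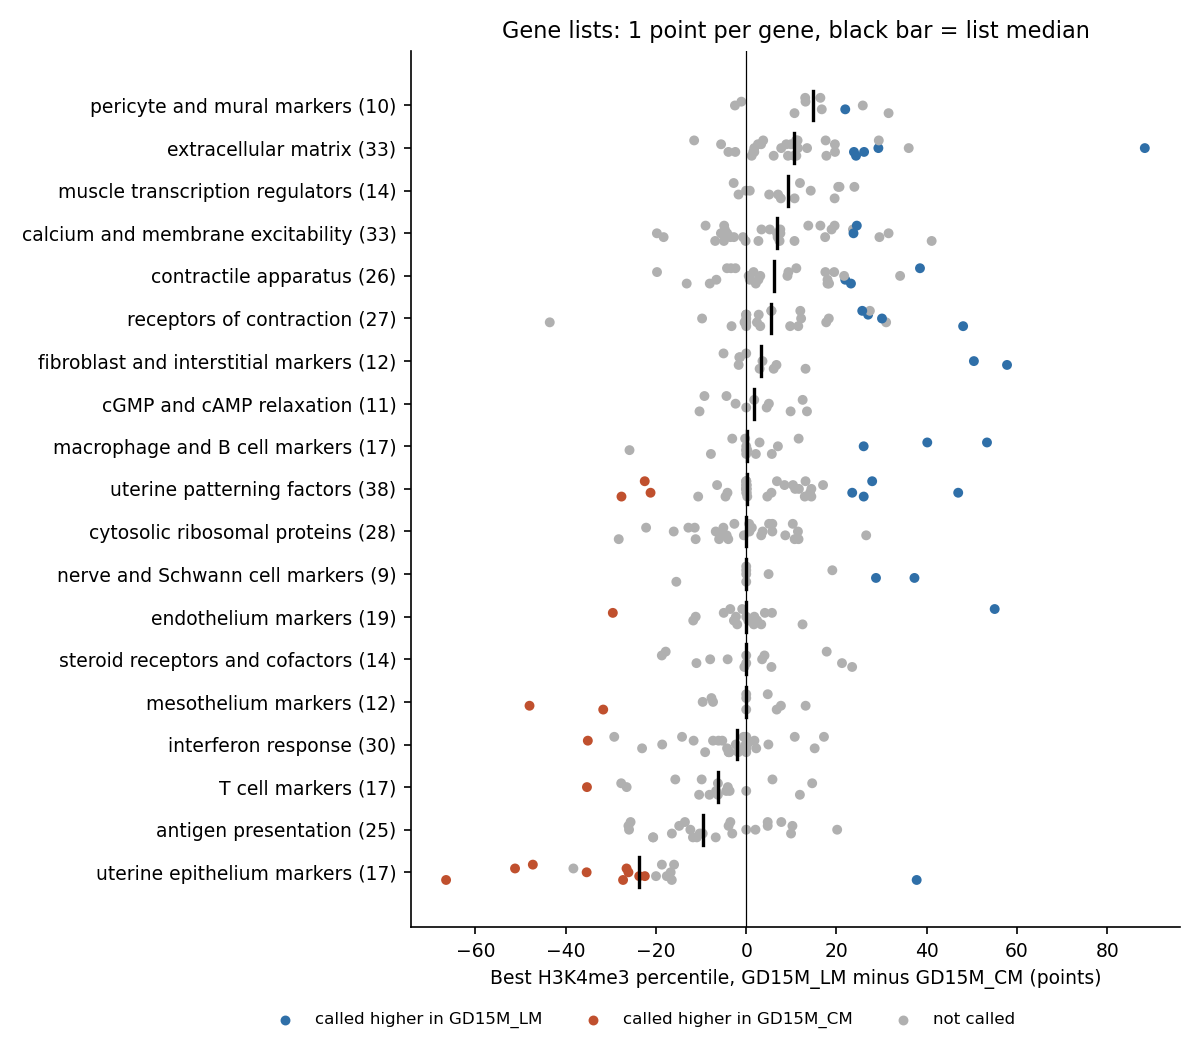
Difference in best H3K4me3 percentile, GD15M_LM minus GD15M_CM, in points (x axis) for the genes of 19 lists (y axis, with the number of placed genes), each point 1 gene and each black bar the median. Uterine epithelium markers have a median of −23.7 points, and the extracellular matrix and pericyte lists have medians of 10.6 and 14.8.

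Genes of the immune response differed less in this mark than the epithelial ones. The interferon response list had a median of −2.04 points over 30 genes, and it was 0 with strict peaks. The 1 call was OAS1 in GD15M_CM, at 86.2 against 51.1, and it rested on 14 bp of a peak of 3744 bp that is also the best peak of the neighbouring OAS2. At OAS2 the percentile was 86.2 in GD15M_CM and 96.9 in GD15M_LM, and with peaks assigned by their centre 0 interferon genes were called in GD15M_CM. IFIT3 stood at 80.5 and 51.3 and IRF9, a subunit of the factor that interferon activates, at 88.9 and 65.8 in GD15M_CM and GD15M_LM. JAK2 and IFNGR2 ranked higher in GD15M_LM by 17.2 and 15.2 points. In length, 20 of the 27 interferon genes with a peak were longer in GD15M_CM, 3 of them by at least 1.5 times.

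Antigen presentation genes ranked lower in the longitudinal layer with no gene called. The median difference over 25 genes was −9.65 points, between −13.5 and −7.07 under the other ways of processing, and 17 of the 24 genes with a peak ranked higher in GD15M_CM. CIITA, the master regulator of class II genes, stood at 81.4 in GD15M_CM, 55.5 in GD15M_LM and 57.8 in CD15M_CM. SLA-DMA, a class II chaperone, stood at 89.4, 63.8 and 65.2 in the same order, and B2M, the light chain of class I molecules, at 99.1, 78.5 and 83.9. At these 3 genes cyclic circular muscle lay near the longitudinal layer, but this did not hold at every gene. SLA-8, which had the largest difference of the list, stood at 97.7, 71.6 and 88.4, so there CD15M_CM was nearer to GD15M_CM. The medians over the list were 85.7, 78.5 and 74.0 in the same order. H3K27ac was higher in GD15M_CM at 21 of the 25. PSME2, a proteasome activator subunit, stood at 95.9 in GD15M_LM against 75.7, but the former value came from 79 bp of a peak of 4430 bp that is also the best peak of PSME1. Reads from the near-identical SLA genes can be shared or lost in mapping, so values of single SLA genes are uncertain.

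Transcription factors that pattern the reproductive tract ranked mostly higher in the longitudinal layer, with calls in both directions. Of 38 placed genes, 10 had no peak in either layer, 21 ranked higher in GD15M_LM and 7 in GD15M_CM. The summed length was longer in GD15M_LM at 24 and in GD15M_CM at 4. The median percentile difference over the 38 was 0.12 points. The HOXA genes of the uterus differed little, HOXA10, HOXA11 and HOXA13 sharing 1 peak at percentile 97.6 in GD15M_CM and 97.7 in GD15M_LM. Called in GD15M_LM were MEIS2, HOXC11, TBX18 and ISL1. MEIS2 (chromosome 1, 134013642 to 134223013), a cofactor of HOX proteins, had a best peak of 10321 bp at fold enrichment 11.8 in GD15M_CM and of 20895 bp at 41.2 in GD15M_LM. TBX18, a factor of smooth muscle and pericyte progenitors, stood at 58.9 in GD15M_CM, 59.7 in CD15M_CM and 85.0 in GD15M_LM, and its H3K27ac percentile was 0 and 89.4 in the pregnant layers.

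Called in GD15M_CM were MSX1, MSX2 and PAX2. MSX1 (chromosome 8, 5628381 to 5632375), a homeobox factor known from uterine epithelium before implantation, was covered over 9664 bp in GD15M_CM, 9736 bp in CD15M_CM and 4203 bp in GD15M_LM. PAX2 (chromosome 14, 111822334 to 111914950), a factor of the Müllerian duct epithelium, was covered over 14460, 15270 and 5238 bp in the same order. MSX2 was covered over 8754, 9293 and 2873 bp. All 3 had lengths in the cyclic circular list close to those of the pregnant one. They thus moved with the epithelial markers, and the part of epithelial nuclei in them was not tested.

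Among all protein-coding genes called with a peak in both lists, the largest percentile differences toward GD15M_LM were at WAP, ADGRG2, HMCN2, EYA1, SPIN4, KCNG2, PNPLA3 and NIPAL4. EYA1 (chromosome 4, 63970939 to 64328107), a transcription coactivator and phosphatase, stood at 27.9 in GD15M_CM, 69.2 in CD15M_CM and 92.4 in GD15M_LM, and its H3K27ac percentile was 0 and 94.7 in the pregnant layers. HMCN2, a basement membrane protein, stood at 8.55, 59.1 and 73.1, and KCNG2, a modifier subunit of voltage-gated potassium channels, at 1.99, 56.3 and 63.6, in the same order. In each of these 3 genes cyclic circular muscle lay nearer to the longitudinal layer. At WAP and PNPLA3 the peak reached the window from outside. With peaks assigned by their centre, an alternative added after the data had been seen, the differences there were 3.19 and −1.56 points.

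Toward GD15M_CM the largest differences were at LKAAEAR1, ADAMTS18, KRT19, FERMT1, CNKSR1, COL11A2, GMNC and ARHGEF16. FERMT1, the kindlin of epithelial cells, stood at 60.8 in GD15M_CM, 66.8 in CD15M_CM and 0.09 in GD15M_LM. GMNC, which starts the multiciliated cell programme, stood at 61.7, 74.2 and 2.07, and ADAMTS18, a secreted metalloprotease, at 73.2, 81.5 and 5.69. At all 8, CD15M_CM was nearer to GD15M_CM than to GD15M_LM. LKAAEAR1 stood at 70.8 and 0.34 in the pregnant layers, and its difference turned to 8.90 points toward GD15M_LM when peaks less than 1 kb apart were joined.

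The highest percentiles with no peak in the other list were at TMEM130, SPARC, NWD2, SPATA22, LGI3 and MGAM2 for GD15M_LM and at FSD2, BRS3, ERICH4, MEFV, MYBPHL and B3GALT5 for GD15M_CM. Of the GD15M_CM genes, FSD2 had 59 bp of peak inside the window, BRS3 33 bp and MYBPHL 31 bp, and B3GALT5 had the most with 565 bp. The GD15M_LM genes had between 377 bp at SPATA22 and 3251 bp at SPARC. With peaks assigned by their centre, 5 of the 6 GD15M_LM genes and 0 of the 6 GD15M_CM genes still differed by 20 points. By contrast, 6 and 8 of the 8 genes in each direction with peaks in both lists did so.

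The called genes with the largest difference in covered length toward GD15M_LM were MYLK, FHL1, JPH2, KCNH2, PPARGC1B, SRL, CSPG4 and BCL2. FHL1 (chromosome X, 111309989 to 111367900), a LIM domain protein of muscle, was covered over 9877 bp in GD15M_CM, 16379 bp in CD15M_CM and 28771 bp in GD15M_LM. JPH2 (chromosome 17, 46590302 to 46665326), junctophilin, which ties the sarcoplasmic reticulum to the plasma membrane, was covered over 5224, 9989 and 18293 bp. SRL, a calcium-binding protein of the sarcoplasmic reticulum, was covered over 5608, 11012 and 12580 bp and the potassium channel KCNH2 over 4822, 10236 and 13516 bp. PPARGC1B, a coactivator of mitochondrial genes, was covered over 6566, 8373 and 13802 bp. In all 8, CD15M_CM lay between the pregnant layers in length. H3K27ac ranked higher in GD15M_LM at each of them, by the least at PPARGC1B with 91.8 and 95.5.

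Toward GD15M_CM these were PAX2, SALL2, MECOM, DLX6, MSX2, IQANK1, LLGL2 and SLC38A1. MECOM (chromosome 13, 107753207 to 108336136), a zinc finger transcription factor, was covered over 13474 bp in GD15M_CM, 12782 bp in CD15M_CM and 6722 bp in GD15M_LM. DLX6, a homeobox factor, was covered over 9632, 11161 and 3055 bp and LLGL2, a polarity protein of epithelia, over 9265, 10959 and 3546 bp. H3K27ac ranked higher in GD15M_CM at all 8, and PAX2, DLX6, MSX2 and IQANK1 had no H3K27ac peak in GD15M_LM. In length, both circular lists were above the longitudinal one at each of the 8.

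H3K27ac was not used to call genes and came from other libraries of the same tissues with the same IgG control. At the 938 genes called in GD15M_LM, its best percentile was higher in GD15M_LM at 554, higher in GD15M_CM at 163 and equal or without a peak at 221. The 554 are 59.1%, where 41.1% of all genes with an H3K4me3 peak ranked higher in GD15M_LM. At the 601 genes called in GD15M_CM, H3K27ac was higher there at 414, or 68.9%, beside 53.9% of all genes, and it was higher in GD15M_LM at 44. A difference of at least 20 points went with the H3K4me3 call at 327 and against it at 65 of the genes called in GD15M_LM, and at 335 and 18 of those called in GD15M_CM. The median H3K27ac difference was 7.17 points in the former and −28.7 in the latter, with −1.09 over all genes. The H3K27ac list of GD15M_CM was the longer one, with 79877 peaks against 57010.

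The cyclic circular muscle was compared with both pregnant layers at the called genes. At the genes called in GD15M_CM the median percentile was 58.1 in GD15M_CM, 57.1 in CD15M_CM and 0 in GD15M_LM, and CD15M_CM was nearer to GD15M_CM at 449 genes, 74.7%. At the genes called in GD15M_LM the medians were 0, 46.7 and 51.5 in the same order. There CD15M_CM was nearer to GD15M_CM at 364 genes, 38.8%, and nearer to GD15M_LM at 574. Over all genes with a peak it was nearer to GD15M_CM at 50.6%. Genes called in the circular layer were thus mostly marked in both circular lists, whereas genes called in the longitudinal layer were mostly marked in cyclic circular muscle as well and ranked low in pregnant circular muscle. Since GD15M_CM and GD15M_LM chose these genes, the place of CD15M_CM between them is a description only, and the state of the gilts, the gilts themselves and the libraries cannot be told apart in it. The CD15M_CM list also held more peaks, 36331, than either pregnant list, and the part of this was not tested.

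**Figure D5:**
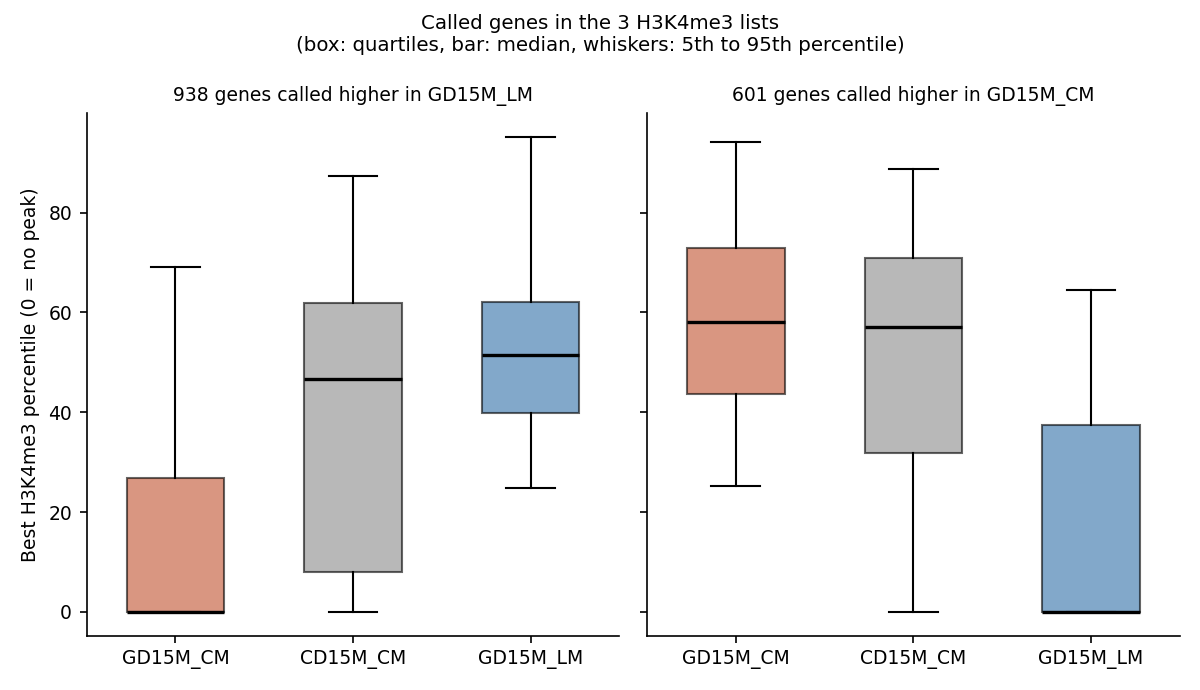
Best H3K4me3 percentile (y axis, 0 means no peak) in GD15M_CM (red), CD15M_CM (grey) and GD15M_LM (blue) of the 938 genes called higher in GD15M_LM (left) and the 601 called higher in GD15M_CM (right). Boxes span the quartiles, bars are medians and whiskers reach the 5th and 95th percentiles; CD15M_CM has medians of 46.7 on the left and 57.1 on the right.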

How the data were processed

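The authors sequenced CUT&Tag type libraries, aligned reads with BWA 0.7.17-r1188 to Sscrofa11.1, removed alignments with a mapping quality under 25 with SAMtools 1.9 and duplicates with Picard 2.8.3, pooled the 2 replicates of a group and called peaks against IgG with MACS2 2.2.6. The deposited lists hold, for each peak, its position, fold enrichment (a ratio over the control) and a −log10 p-value, whose header was unreadable and which was recognised by its place in MACS2 output. A −log10 q-value column and the H3K27ac list of CD15M_CM were not used here. Sequencing depth is not in the deposited peak lists. The authors tabulate read numbers for the libraries, which were not used here. No interval could be given.

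Percentiles of fold enrichment, best percentile and summed peak length (clipped to the window, overlap of at least 1 bp) were computed with Python 3.11.15, pandas 2.3.3 and NumPy 2.4.6, and plots drawn with Matplotlib 3.10.9. The code was tested on simulated data. RefSeq models were used without strand. Of 406 listed genes, 388 were placed, and genes in 2 lists count in both. Groups came from the sample labels. With 1 pooled list per group no test was possible. Named genes were protein-coding, 1 per best peak: the 8 called in each direction with the largest percentile difference, the 6 with the highest percentile in 1 list only, the 8 with the largest length difference, and up to 4 examples per list with the largest differences. Other list members were named after their values were seen. The comparison, the gene lists and the limits of 20 points and 1.5 times were chosen with earlier results of these data known. The alternatives tried are given with the limits in the closing part.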

Additional observations from a re-analysis of the deposited data

How the results depend on the processing

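No paired analysis was possible because the reads of replicates were merged before the peaks were called and the lists carry no values per replicate. For the same reason no replicate could be left out. The number of genes called in GD15M_LM lay between 654 and 1035 in 9 of 12 alternatives and that in GD15M_CM between 412 and 845 in 10 of 12. With strict peaks, 380 genes were called in GD15M_CM. A limit of 10 points gave 1463 and one of 30 points 620 genes in GD15M_LM, and the percentile limit without the length limit gave 1488 in GD15M_LM and 1315 in GD15M_CM, as fewer or more genes can pass by construction. Among protein-coding genes alone, 452 had a peak in GD15M_LM only and 277 in GD15M_CM only. The median percentile difference over all genes with a peak, −0.40 points, was 2.10 with strict peaks and 1.59 with peaks under 1 kb apart joined, and the cause was not tested, so list medians of about 2 points or less have no settled side. The median log2 length ratio lay between 0.05 and 0.08. Of the named genes, 2 turned, LKAAEAR1 to 8.90 points with joined peaks and PNPLA3 to −1.56 with peaks assigned by their centre. Assignment by centre and the 3 kb around either gene end were chosen after seeing the data. The planned window around the gene start was not run because the annotation used here gives no strand, and promoter sequences were not analysed here.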

Other observations

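Runs of at least 3 neighbouring protein-coding genes called in the same direction were looked for after the data had been seen, and 5 were found. The metallothionein genes MT3, MT-2B and MT1D (chromosome 6, 18634735 to 18652317), which bind zinc and copper, were covered over 14128 bp in GD15M_CM and 3776 bp in GD15M_LM in sum, with median percentiles of 94.9 and 49.1, and 83.7 in CD15M_CM. The calcium-binding genes S100A2, S100A3 and S100A4 (chromosome 4, 96073496 to 96091160) went the other way, from 1194 bp to 4811 bp, with median percentiles of 10.8 and 42.3, and 8.0 in CD15M_CM. Both of these runs rest on 2 distinct best peaks. The others were G0S2, LAMB3 and CAMK1G on chromosome 9 toward GD15M_LM, SMIM5, MYO15B and LLGL2 on chromosome 12 toward GD15M_CM, and 4 unnamed genes on chromosome 2 toward GD15M_LM.

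By chromosome, the share of genes called in GD15M_LM was highest on chromosome X, where 58 of 1171 genes (4.95%) were called in GD15M_LM and 10 (0.854%) in GD15M_CM. The next shares toward GD15M_LM were 4.86% on chromosome 18 and 4.83% on chromosome 11, so X stood little apart from these autosomes in that direction. No test of either share was run.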
